A study of Mus musculus with 8 samples.

Results

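Resting peritoneal macrophages of a knockout line for the Fc gamma chain (FcgKO in the labels, KO here) were compared with wild-type cells (WT). The comparison used the arrays of unstimulated cells, 4 of the 8 arrays of the series, which were chosen by their titles. Each genotype had 2 of them. The cells came from naive C57BL/6 mice, the strain given for both genotypes. They were plated in 24-well dishes and kept overnight in RPMI with 10% fetal bovine serum and 15% supernatant of L929 cells, which secrete M-CSF, a growth factor of macrophages. Non-adherent cells were then removed, so "unstimulated" here means adherent cells already exposed to serum and M-CSF. The other 4 arrays carry the same genotypes after interleukin-4 (IL-4, 10 ng/ml for 6 h). They give the genotype comparison again in samples that share no array with the unstimulated groups. The labels do not say whether the cell preparations are shared. The labels name no allele, sex or age and tie no array to an animal, so each p-value measures only the spread between duplicate arrays, which may be technical.

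The Fc receptor gamma chain is a small adaptor protein that carries an immunoreceptor tyrosine-based activation motif (ITAM) in its cytoplasmic tail. It pairs with the activating Fc receptors, which bind antibody, and with several other receptors of myeloid cells, among them the C-type lectins Mincle and Dectin-2. Src-family kinases phosphorylate the motif once a receptor is engaged, and the kinase Syk then starts signals that reach NF-kB, a transcription factor of inflammatory genes. Resident peritoneal macrophages are mostly the large type, which depends on the transcription factor Gata6 and clears dying cells.

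Each array held 25697 probes, with between 54.3% and 54.9% above the background threshold of 93.1 to 93.3 intensity units. Values are normalized intensities as deposited, on a linear scale, and differences are on the log2 scale after background correction, with their standard error (SE). Across the 9882 genes tested, on the log2 scale after background correction, the duplicates correlated at r = 0.994 (WT) and 0.995 (KO). Arrays of different genotype correlated at 0.987 to 0.988. The 11 measured macrophage markers summed to between 41825 and 42757 intensity units in WT and between 40395 and 42806 in KO, and all 11 were above background in both groups. Of the 11, 2 passed the test as higher and 2 as lower in KO, where 2.61% of all genes passed in each direction. Similar sums therefore do not mean that each marker was unchanged. Of the markers of other cells, the 4 measured neutrophil genes summed to between 2227 and 2490 in WT and between 1587 and 1709 in KO, with 6 and 7 of the list's genes not above background. Most of this sum came from S100a8, at 2181 and 1900 in WT and 1436 and 1305 in KO (log2 -0.60 ± 0.13, adjusted p = 0.015), which did not pass without WT replicate 1 or KO replicate 2 (adjusted p = 0.157 and 0.142). In the platelet and erythroid list, the sum was 4399 to 5129 in WT and 6510 to 6520 in KO, most of it from Pf4. Pf4 was higher in KO (log2 0.52 ± 0.11, adjusted p = 0.0104), while 1 member of the list passed as lower (log2 -0.80). The duplicates of Hba-a1, a haemoglobin gene, were far apart, at 102 and 212 in WT and 293 and 120 in KO. The mast cell sums (1934 to 2417 in WT, 1645 to 2110 in KO) and the B cell sums (2732 to 3856 in WT, 3123 to 3453 in KO) overlapped between genotypes. The 11 measured T and NK cell markers summed to between 1341 and 1468 in WT and between 1460 and 1663 in KO, and none of them passed the test. The part of such cells in the differences below was not tested. In bulk RNA, fewer cells of a type and less RNA per cell cannot be told apart.

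Fcer1g, the gene of the gamma chain, served as the check of the labels. Its intensity was 12988 and 12988 in WT and 85.7 and 87.5 in KO. Both KO arrays lay under the background threshold and the WT arrays were near the top of the table's range. The gene was at least 139-fold lower in KO on the deposited intensities (log2 -9.26 ± 0.11, adjusted p = 2.1e-15 after background correction). Here and below, a gene not above background in one group is given as a bound on the deposited intensities, the bright group's mean against the higher of the dim probe's own signal and the lowest signal that counts as above background. After background correction the same bound for Fcer1g is 467-fold, so its size rests on the correction.

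Of 9882 genes tested with limma, 516 differed between KO and WT at an adjusted p under 0.05 (5.22%). Of these, 258 were higher in KO (2.61%) and 258 were lower (2.61%). Every count of list members below is to be read beside these shares, and no test of a list as a set was run. The number at an unadjusted p under 0.05 was 1603. The differences were mostly moderate, with a median of 0.60 among the higher genes and -0.70 among the lower genes, against a median of 0.0040 over all genes and a median SE of 0.13. The large differences were mainly decreases. At least 2-fold differences were found for 79 of the genes past the threshold (0.799%), 22 of them higher and 57 lower in KO, and at least 4-fold differences for 2 higher and 10 lower genes. Without background correction these counts were 9 higher and 33 lower for 2-fold and 0 and 6 for 4-fold. The 2 groups did not overlap for any of the 516 genes, but with 2 arrays a group this held for 44.7% of all genes tested. Remarks below that the arrays of the 2 genotypes lay apart are therefore descriptions and add no support to a call. The count was 320 without WT replicate 1, 293 without WT replicate 2, 324 without KO replicate 1 and 299 without KO replicate 2, and 186 genes passed whichever of the 4 was left out (79 higher, 107 lower).

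**Figure D1:**
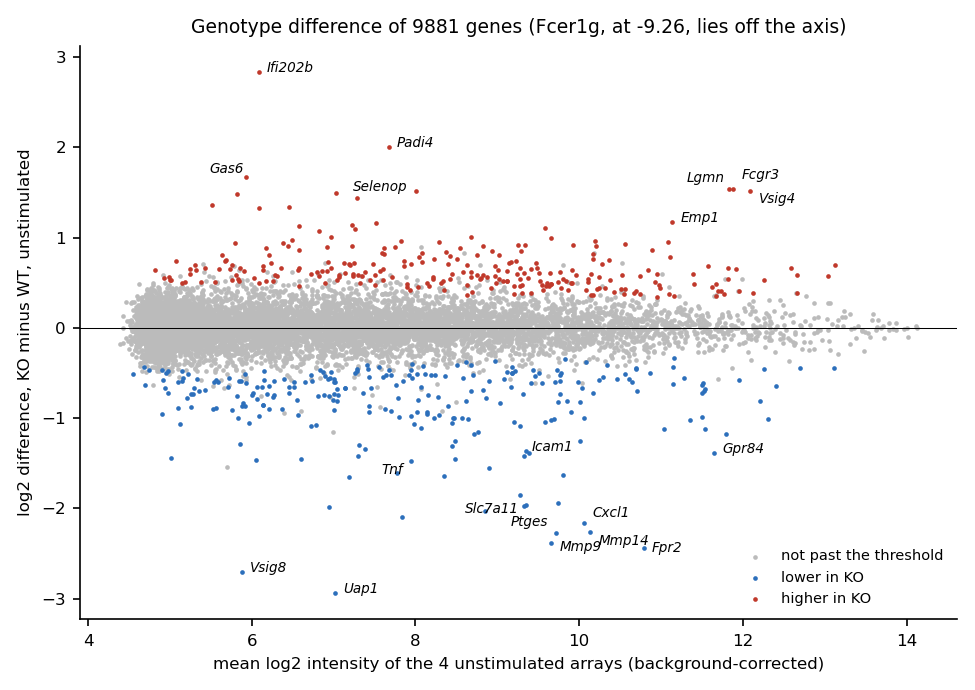
Each point is 1 of 9881 tested genes (Fcer1g is off the axis), with the mean log2 intensity of the 4 unstimulated arrays on the x axis and the log2 difference, KO minus WT, on the y axis. Red points (258) were higher and blue points (257 without Fcer1g) were lower in KO at an adjusted p under 0.05, and the blue points reach further from 0, with Uap1, Vsig8, Fpr2 and Mmp9 lowest.

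Of the Fc receptors, Fcgr3 was clearly higher in the cells that lack its signalling partner. Fcgr3 encodes the low-affinity activating IgG receptor. It read 2352 and 2205 in WT and 6410 and 6536 in KO, with both KO arrays far above both WT arrays, a 2.90-fold increase (log2 1.53 ± 0.09, adjusted p = 2.3e-07). Fcgr2b, the inhibitory IgG receptor, which signals without the chain, read 2318 and 2400 in WT and 3203 and 3332 in KO. It was 1.40-fold higher (log2 0.48 ± 0.08, adjusted p = 0.00316), and this call ended when all probes of the gene were averaged (log2 0.27, adjusted p = 0.133). The other receptors that use the chain did not pass in the main fit. With the replicate number added to the fit as a block, Fcgr1 and Fcgr4 passed (adjusted p = 0.0119 and 0.00105). Fcgr1, the high-affinity IgG receptor, had a difference of log2 0.51 ± 0.15, adjusted p = 0.0717. It passed without WT replicate 2 (adjusted p = 0.0372). Fcgr4 read 730 and 1199 in WT and 1206 and 2149 in KO (log2 0.83, adjusted p = 0.181), so that the lower KO array lay just above the higher WT array and the duplicates were far apart. Of 11 measured genes of the Fc receptor list, 2 were higher and 1, Fcer1g itself, was lower, with a median of 0.24. Fcgr2b and Fcgr3 lie 4 and 2 tested genes from Fcer1g on the same chromosome, so the position of these genes and the loss of the chain cannot be told apart in this design.

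Some receptors outside the Fc family that pair with the chain were lower. Of 12 measured genes, 3 were lower and 0 higher (median -0.14). All 3 are C-type lectin receptors that signal through the chain. Clec4e (Mincle, a receptor for mycobacterial glycolipid and dead cells) read 4804 and 4130 in WT and 1766 and 2448 in KO, 2.18-fold lower in KO (log2 -1.12 ± 0.16, adjusted p = 0.000826). Clec4n (Dectin-2, a receptor for fungal mannan) read 5467 and 5348 in WT and 2239 and 2642 in KO (log2 -1.17 ± 0.19, adjusted p = 0.00204). Clec4b1, also called DCAR, read 583 and 539 in WT and 311 and 317 in KO (log2 -0.99 ± 0.15, adjusted p = 0.0013). For each of the 3 the WT arrays lay close together and well above the KO arrays. Clec4d, the partner lectin of Mincle, did not follow them, at 7276 and 7142 in WT and 7793 and 6979 in KO (adjusted p = 0.926). The Clec4n call was lost with robust variance moderation (adjusted p = 0.0969), and the difference of Clec4b1 was -0.51 as the mean of its probes. Csf2rb, the beta subunit of the GM-CSF and IL-3 receptors, had a difference of log2 -0.48 ± 0.14, adjusted p = 0.0786.

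Among 30 measured ITAM adaptors, receptors and kinases, 5 were higher and 5 lower (median 0.10), and the counts were 2 and 1 without WT replicate 1, 0 and 2 without KO replicate 1, 1 and 1 without WT replicate 2 and 1 and 3 without KO replicate 2. Trem1, an amplifier of inflammatory signals that pairs with the related adaptor DAP12, was lower whichever array was left out. It read 145 and 147 in WT and 101 and 111 in KO, 2.00-fold lower (log2 -1.0 ± 0.15, adjusted p = 0.000917). Both KO arrays were nearer the background than the WT arrays, and without background correction the difference was -0.46.

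Most measured NF-kB target genes were lower. Of 30 measured members, 17 were lower and 1 higher in KO, where 2.61% of all genes were lower, with a median of -0.79 against 0.0040 over all genes. Between 13 and 16 were lower with any 1 unstimulated array left out. With IL-4, 18 of the 30 were lower and 1 was higher. The largest decrease of the list was that of Cxcl1. Not all secreted members passed. Il1b, the gene of a secreted interleukin, read 678 and 444 in WT and 278 and 414 in KO (log2 -0.82 ± 0.35, adjusted p = 0.259). Cxcl1, a chemokine that attracts neutrophils, read 2844 and 1906 in WT and 656 and 499 in KO, 4.47-fold lower (log2 -2.16 ± 0.20, adjusted p = 2.5e-05). Its neighbour Cxcl2, with the same role, read 1358 and 905 in WT and 426 and 523 in KO, 2.57-fold lower (log2 -1.36 ± 0.18, adjusted p = 0.000441). The WT arrays of both chemokines were less alike than the KO arrays, and the groups stayed apart. Tnf, the central inflammatory cytokine, read 475 and 481 in WT and 205 and 222 in KO, 2.79-fold lower (log2 -1.48 ± 0.13, adjusted p = 1.7e-05). The WT duplicates of Tnf were nearly equal, and so were those of Icam1, an adhesion molecule for leukocytes, at 1134 and 1086 in WT and 449 and 466 in KO (log2 -1.41 ± 0.09, adjusted p = 9.2e-07).

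The feedback inhibitors of NF-kB were lower along with its targets. Nfkbia, which holds NF-kB in the cytoplasm, read 1664 and 1642 in WT and 686 and 781 in KO, 2.38-fold lower (log2 -1.25 ± 0.10, adjusted p = 5.1e-06). Nfkbie, another inhibitor of this kind, read 513 and 394 in WT and 197 and 186 in KO (log2 -1.61 ± 0.14, adjusted p = 1.3e-05). Tnip1, which restrains signalling together with A20, read 1215 and 1090 in WT and 456 and 511 in KO (log2 -1.38 ± 0.11, adjusted p = 9.9e-06). In each of these 3 genes every KO array was below every WT array by a wide margin. The subunit Relb, also a target, had a difference of -1.29, the inhibitor Nfkbiz -0.90 and Tnfaip2 -1.05. Tnfaip3, the gene of A20, was smaller in its difference (log2 -0.48 ± 0.11, adjusted p = 0.024) and did not pass without any one of WT replicate 1, KO replicate 1 or KO replicate 2 (adjusted p = 0.169, 0.0644 and 0.179). Sod2, a mitochondrial superoxide dismutase, was the brightest of the lower members at 6769 and 7733 in WT and 3305 and 3972 in KO (log2 -1.01 ± 0.10, adjusted p = 5.2e-05). The higher member was Ccl2, a monocyte chemokine, at 225 and 230 in WT and 297 and 302 in KO (log2 0.53 ± 0.11, adjusted p = 0.0144), which did not pass without any 1 of the 4 unstimulated arrays (adjusted p between 0.0684 and 0.0989).

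Promoter sequences of 3 lower members are shown for their NF-kB motifs. The sequences are from RefSeq (GRCm38.p6), each a stretch of 100 bases within the 250 before the gene's start, on the gene's strand, and capitals mark matches to the kB consensus motif on either strand, which overlap in Cxcl1 and Cxcl2. The windows are chr5:90891129-90891228 (plus strand) for Cxcl1, chr5:90903757-90903856 (plus) for Cxcl2 and chr12:55492648-55492747 (minus) for Nfkbia.
Cxcl1: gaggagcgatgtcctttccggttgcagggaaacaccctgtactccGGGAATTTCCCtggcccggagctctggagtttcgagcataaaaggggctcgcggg
Cxcl2: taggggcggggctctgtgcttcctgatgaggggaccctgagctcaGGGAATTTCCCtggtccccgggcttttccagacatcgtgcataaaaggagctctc
Nfkbia: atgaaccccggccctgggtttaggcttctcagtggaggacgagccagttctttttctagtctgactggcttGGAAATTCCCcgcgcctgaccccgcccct
In the 250 bases before the start, the kB consensus was found in 9 of the 15 lower list members with a promoter in the table (Cxcl1, Cxcl2, Nfkbia, Nfkbie, Tnfaip3, Tnip1, Nfkb2, Sod2 and Ier3) and in 3 of the 7 members that did not pass. It occurs in 3.9% of all 32851 promoters and in 5.54% of those of the tested genes. The motifs used here and below were chosen after the differences had been seen, and a match is a description of the sequence.

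**Figure D2:**
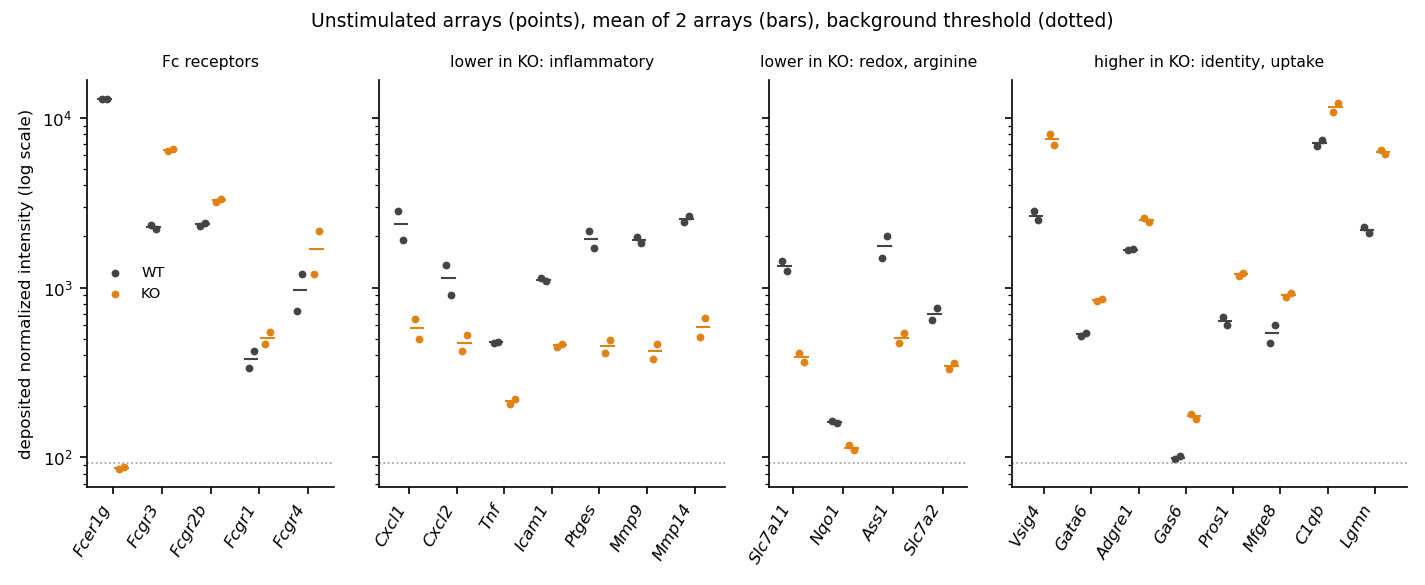
Points are deposited normalized intensities (log scale) of single unstimulated arrays, 2 for WT (grey) and 2 for KO (orange), bars are their means, and the dotted line is the background threshold of 93.1 to 93.3. Fcer1g falls from 12988 to under the threshold, Fcgr3, Vsig4 and Lgmn are higher in KO, the inflammatory and redox genes are lower in KO and the Fcgr4 groups nearly touch.

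Other inflammatory groups changed in part, where 2.61% of all genes passed in each direction. Of 23 measured chemokines, 4 were higher and 6 lower (median -0.14), with as few as 1 higher and 3 lower without KO replicate 2. Beside Cxcl1 and Cxcl2, the scavenger chemokine Cxcl16 was lower, at 1433 and 1677 in WT and 982 and 947 in KO (log2 -0.72 ± 0.12, adjusted p = 0.00197). Ccl7, a monocyte attractant, had the largest increase of the list, at 351 and 329 in WT and 511 and 644 in KO, 1.85-fold higher (log2 0.89 ± 0.13, adjusted p = 0.000953), and KO replicate 2 was the higher of its duplicates. Of 22 Toll-like receptors and accessory molecules, 5 were higher and 4 lower (median 0.05), and 2 were higher without any 1 unstimulated array. Tlr2, the receptor for bacterial lipoprotein, read 6251 and 6410 in WT and 3623 and 3651 in KO, 1.75-fold lower (log2 -0.81 ± 0.08, adjusted p = 4.1e-05). Cd14, its co-receptor and that of Tlr4, read 7142 and 6536 in WT and 4374 and 4414 in KO (log2 -0.64 ± 0.08, adjusted p = 0.000313), and Irak3, a brake on this pathway, 692 and 592 in WT and 419 and 427 in KO (log2 -0.68 ± 0.11, adjusted p = 0.00204). The 3 lower genes kept their call with any unstimulated array left out. The endosomal receptors Tlr7, Tlr8 and Tlr13 were higher by 0.47, 0.73 and 0.71. Tlr7 did not pass without KO replicate 1, WT replicate 2 or KO replicate 2 (adjusted p = 0.0789, 0.155 and 0.122), Tlr8 not without WT replicate 1 or KO replicate 2 (0.0531 and 0.0592) and Tlr13 not without KO replicate 1 or WT replicate 2 (0.0768 and 0.0622). In the interleukin-1 and TNF family list, 2 of 21 were higher and 2 lower (median -0.18), and without WT replicate 2 the counts were 0 and 1.

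Receptors for chemoattractants moved in both directions, with 3 of 14 higher and 5 lower (median -0.0017), and 2 of each without WT replicate 2. Fpr2, a formyl peptide receptor that senses bacterial and mitochondrial peptides, had one of the largest decreases of the comparison. It read 3899 and 4494 in WT and 635 and 1082 in KO, 5.42-fold lower (log2 -2.44 ± 0.31, adjusted p = 0.000334), and KO replicate 1 was the lower of its duplicates. Its call was lost with robust variance moderation (adjusted p = 0.108). Gpr84, a receptor for medium-chain fatty acids, read 5215 and 5334 in WT and 2027 and 2080 in KO, 2.62-fold lower (log2 -1.39 ± 0.10, adjusted p = 1.4e-06), with duplicates that differed little. In the other direction, Gpr183, the receptor for oxysterols, read 375 and 376 in WT and 572 and 566 in KO (log2 0.70 ± 0.10, adjusted p = 0.000549), and P2ry14, the receptor for UDP-glucose, 182 and 186 in WT and 244 and 277 in KO (log2 0.71 ± 0.12, adjusted p = 0.00298).

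The enzymes of eicosanoid synthesis gave 3 higher and 2 lower genes of 17 (median 0.03). Ptges, which makes prostaglandin E2, read 2145 and 1716 in WT and 414 and 490 in KO, 4.82-fold lower (log2 -2.27 ± 0.16, adjusted p = 1.7e-06), and this was among the 10 decreases of at least 4-fold. Pla2g7, the hydrolase of platelet-activating factor, read 464 and 517 in WT and 315 and 247 in KO (log2 -0.99 ± 0.16, adjusted p = 0.00225). Pla2g15, a lysosomal phospholipase, was higher, at 1771 and 1784 in WT and 2408 and 2491 in KO (log2 0.48 ± 0.09, adjusted p = 0.00435). Alox15, the 12/15-lipoxygenase of resident peritoneal macrophages, read 505 and 516 in WT and 772 and 842 in KO (log2 0.73 ± 0.11, adjusted p = 0.000917), and did not pass as the mean of its probes (log2 0.48, adjusted p = 0.0654).

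Matrix-degrading enzymes that passed were all lower, where 2.61% of all genes were lower and 2.61% higher. Of 18 metalloproteinases and inhibitors, 5 were lower and 1 higher (median -0.20), and 4 to 6 were lower without 1 unstimulated array. Mmp9, a gelatinase, read 1987 and 1834 in WT and 377 and 468 in KO, 5.20-fold lower (log2 -2.38 ± 0.14, adjusted p = 2.3e-07). Mmp14, a membrane-bound collagenase that activates other members, read 2434 and 2623 in WT and 511 and 658 in KO, 4.79-fold lower (log2 -2.26 ± 0.13, adjusted p = 2.3e-07). Mmp12, the macrophage elastase, read 968 and 968 in WT and 540 and 447 in KO (log2 -1.08 ± 0.16, adjusted p = 0.00116). The higher gene was the inhibitor Timp2 (log2 0.58), which did not pass without WT replicate 1 or KO replicate 1 (adjusted p = 0.0708 and 0.0768). The inhibitor Timp1 was lower, at 2978 and 3390 in WT and 1521 and 1469 in KO (log2 -1.12 ± 0.14, adjusted p = 0.000265). For Timp1 and the 3 enzymes both WT arrays read well above both KO arrays.

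Immediate early genes, which report recent signalling, gave 6 lower and 1 higher gene of 21 (median -0.16). Fos read 312 and 298 in WT and 195 and 187 in KO (log2 -0.93 ± 0.15, adjusted p = 0.00156), the phosphatase gene Dusp1 438 and 483 in WT and 276 and 261 in KO (log2 -0.96 ± 0.12, adjusted p = 0.000285) and Egr2 418 and 403 in WT and 280 and 249 in KO (log2 -0.80 ± 0.11, adjusted p = 0.000827). Klf2, a transcription factor of quiescent cells, was the higher member, at 467 and 486 in WT and 682 and 736 in KO (log2 0.64 ± 0.10, adjusted p = 0.00154). The duplicates of these 4 genes lay close together in both genotypes. Without WT replicate 1, 3 members were lower, and without any of the others 4. Of 24 growth factors and receptors, 2 were higher and 3 lower (median -0.10), and 1 of each without WT replicate 2. Pdgfb, a growth factor for mesenchymal cells, read 593 and 636 in WT and 340 and 245 in KO (log2 -1.31 ± 0.17, adjusted p = 0.000399), and -0.86 as the mean of its probes. Phlda1, a gene induced by growth signals, read 634 and 649 in WT and 265 and 237 in KO, 3.11-fold lower (log2 -1.64 ± 0.12, adjusted p = 3.3e-06), and Gadd45a, a stress-response gene, 866 and 899 in WT and 360 and 328 in KO, 2.93-fold lower (log2 -1.55 ± 0.13, adjusted p = 1.1e-05).

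In the mixed list of oxidative stress and metal handling, the genes that passed were all lower. Of 25 measured genes of oxidative stress and metal handling, 10 were lower and 0 higher (median -0.20). The number lower was 8 without WT replicate 1 or KO replicate 1, 7 without WT replicate 2 and 6 without KO replicate 2. With IL-4, 11 were lower and 1 higher. The bright members Gpx1 and Fth1 did not pass unstimulated (log2 -0.02 and -0.0036, adjusted p = 0.946 and 0.996). Slc7a11, the cystine importer that feeds glutathione synthesis, read 1426 and 1251 in WT and 412 and 366 in KO, 3.94-fold lower (log2 -1.98 ± 0.23, adjusted p = 0.000189). Nqo1, a quinone reductase, read 163 and 159 in WT and 118 and 110 in KO (log2 -0.98 ± 0.16, adjusted p = 0.00211), and -0.50 without background correction. Ncf4, a subunit of the phagocyte oxidase, read 2141 and 2246 in WT and 1373 and 1380 in KO (log2 -0.70 ± 0.09, adjusted p = 0.000285), and Blvrb, which reduces biliverdin, 4924 and 4935 in WT and 3390 and 3263 in KO (log2 -0.58 ± 0.10, adjusted p = 0.00237). The 4 genes passed whichever array was left out. Gclm, a subunit of the enzyme that limits glutathione synthesis, had a difference of log2 -1.02 ± 0.20, adjusted p = 0.00771. It did not pass without WT replicate 2 (adjusted p = 0.115), without KO replicate 2 (0.11) or with robust variance moderation (0.107). The antioxidant response motif TGACNNNGC was found in 3 of 9 lower members and 3 of 14 members that did not pass, against 13.8% of the promoters of tested genes.

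Single steps of arginine handling and glucose uptake were lower. Of 13 genes of arginine and polyamine metabolism, 2 were lower and 1 higher (median -0.06). Ass1, which regenerates arginine from citrulline, read 1498 and 2010 in WT and 469 and 538 in KO, 3.82-fold lower (log2 -1.93 ± 0.17, adjusted p = 1.7e-05). Slc7a2, an importer of arginine, read 644 and 758 in WT and 332 and 359 in KO, 2.26-fold lower (log2 -1.18 ± 0.11, adjusted p = 1.7e-05), or -0.74 as the mean of its probes. Arg1, arginase, read 12645 and 12423 in WT and 12203 and 11252 in KO (adjusted p = 0.719). Of 25 genes of glycolysis and hypoxia, 3 were lower and 0 higher, and 22 had a negative difference (median -0.16). The count lower was 1 without KO replicate 1 or WT replicate 2 and 4 without either of the others. Slc2a1, the glucose transporter, read 1235 and 1660 in WT and 874 and 807 in KO (log2 -0.82 ± 0.13, adjusted p = 0.0019), with WT replicate 2 the higher of its duplicates.

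Against these decreases, several genes of resident macrophage identity were higher. Of 22 measured genes that mark large peritoneal macrophages, 8 passed as higher and 1 as lower in KO, where 2.61% of all genes were higher (median 0.41), and 7 or 8 were higher without 1 unstimulated array. With IL-4, 10 were higher and 2 lower. Without regard to the threshold, 16 of the 22 had a positive and 6 a negative difference on unstimulated arrays. The lower member was F10, at 3666 and 3933 in WT and 2025 and 2670 in KO (log2 -0.72 ± 0.16, adjusted p = 0.0144). Gata6, the transcription factor that defines these cells, read 521 and 538 in WT and 833 and 852 in KO, 1.67-fold higher (log2 0.74 ± 0.09, adjusted p = 0.000313). Vsig4, a complement receptor, read 2807 and 2494 in WT and 8006 and 6936 in KO, 2.86-fold higher (log2 1.52 ± 0.10, adjusted p = 9.2e-07). Adgre1, the gene of the F4/80 antigen, read 1671 and 1680 in WT and 2582 and 2430 in KO (log2 0.60 ± 0.08, adjusted p = 0.000744). The KO arrays were above the WT arrays for all 3, by more than the gap between duplicates. The higher members Selp and Tgfb2 lie among the 100 tested genes on either side of Fcer1g. Of 16 genes of small peritoneal macrophages, monocytes and dendritic cells, 0 were higher and 2 lower (median -0.11).

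Several genes for the uptake of dying cells were higher as well. Of 23 measured genes of efferocytosis and complement, 7 were higher and 1 lower (median 0.32), and 7 or 8 were higher without 1 unstimulated array. The 3 chains of C1q, which coats dying cells, were all higher. C1qa read 2169 and 2327 in WT and 3254 and 3459 in KO (log2 0.59 ± 0.10, adjusted p = 0.00249), C1qb 6840 and 7389 in WT and 10844 and 12203 in KO (log2 0.70 ± 0.09, adjusted p = 0.000295) and C1qc 4709 and 5281 in WT and 7545 and 8124 in KO (log2 0.66 ± 0.10, adjusted p = 0.00134). The bridging molecules that link phosphatidylserine on dying cells to the macrophage were higher too. Gas6 read 98.1 and 101 in WT and 181 and 169 in KO, 3.19-fold higher (log2 1.67 ± 0.17, adjusted p = 5.6e-05), Pros1 671 and 605 in WT and 1177 and 1226 in KO (log2 0.99 ± 0.10, adjusted p = 3.3e-05) and Mfge8 472 and 602 in WT and 885 and 927 in KO (log2 0.85 ± 0.13, adjusted p = 0.00108). Gas6 was just above the background threshold in WT, so its size rests on the background correction, without which the difference was 0.81. Axl, a receptor for Gas6, was the lower member (log2 -0.50 ± 0.13, adjusted p = 0.0423) and did not pass without KO replicate 1, WT replicate 2 or KO replicate 2 (adjusted p = 0.155, 0.308 and 0.191). Complement component C4b read 1651 and 1840 in WT and 2820 and 3102 in KO (log2 0.79 ± 0.10, adjusted p = 0.00025). Of 15 scavenger receptors, 3 were lower and 0 higher (median -0.08), among them Marco, a receptor for bacteria and particles, at 937 and 893 in WT and 420 and 542 in KO (log2 -1.05 ± 0.16, adjusted p = 0.00135).

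Most lysosomal genes had positive differences. Of 31 measured members, 27 had a positive difference and 8 were higher and 2 lower past the threshold (median 0.27). The number higher was 3 without WT replicate 1 or KO replicate 2, 4 without KO replicate 1 and 5 without WT replicate 2. Lgmn, the endopeptidase legumain, read 2287 and 2105 in WT and 6429 and 6101 in KO, 2.91-fold higher (log2 1.54 ± 0.09, adjusted p = 3.0e-07). Glb1, beta-galactosidase, read 1029 and 1144 in WT and 1732 and 1834 in KO (log2 0.75 ± 0.10, adjusted p = 0.000343), and Man2b1, a mannosidase, 2595 and 3325 in WT and 4587 and 4637 in KO (log2 0.66 ± 0.11, adjusted p = 0.00217). The protease gene Ctsc went the other way, at 5763 and 5856 in WT and 4366 and 4130 in KO (log2 -0.46 ± 0.08, adjusted p = 0.00269). The 4 genes passed whichever unstimulated array was left out. The Glb1 promoter is shown for TCACGTG, a motif bound by the lysosomal regulator TFEB, with the match in capitals (RefSeq, GRCm38.p6, chr9:114400978-114401077, plus strand).
Glb1: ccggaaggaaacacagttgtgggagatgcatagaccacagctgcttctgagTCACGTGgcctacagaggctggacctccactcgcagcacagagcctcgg
The motif, on either strand of the 250 bases before the start, was found in 3 of 8 higher lysosomal genes and 5 of 18 that did not pass, against 5.57% of the promoters of tested genes and 3.13% of all promoters. Of 27 genes of the vacuolar ATPase and autophagy, 3 were higher and 1 lower (median 0.13), and 0 were higher without KO replicate 2, 1 without either WT array and 2 without KO replicate 1.

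Differences of lipid synthesis genes lay between -0.20 and 0.69, and those of lipid handling genes between -0.93 and 1.36. Of 26 genes of cholesterol and fatty acid synthesis, 23 had a positive difference and 6 passed as higher and 0 as lower (median 0.24). The number higher was 0 without WT replicate 1 or KO replicate 2, 1 without WT replicate 2 and 4 without KO replicate 1. Fdps, which makes farnesyl diphosphate, read 977 and 992 in WT and 1291 and 1630 in KO (log2 0.59 ± 0.12, adjusted p = 0.0109), and did not pass without WT replicate 1, WT replicate 2 or KO replicate 2 (adjusted p = 0.0785, 0.0719 and 0.153). With IL-4, 0 members of this list were higher and 0 lower. Of 19 genes of LXR targets and lipid handling, 3 were higher and 1 lower (median 0.10), and 1 was higher without WT replicate 2. Nr1h3, the gene of the oxysterol receptor LXR alpha, was lower, at 358 and 349 in WT and 221 and 213 in KO (log2 -0.93 ± 0.11, adjusted p = 0.000191). Apoc4, an apolipoprotein gene, was near background in WT and higher in KO, at 97.6 and 91.0 in WT and 135 and 143 in KO (log2 1.36 ± 0.14, adjusted p = 6.8e-05), or 0.56 without background correction.

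**Figure D3:**
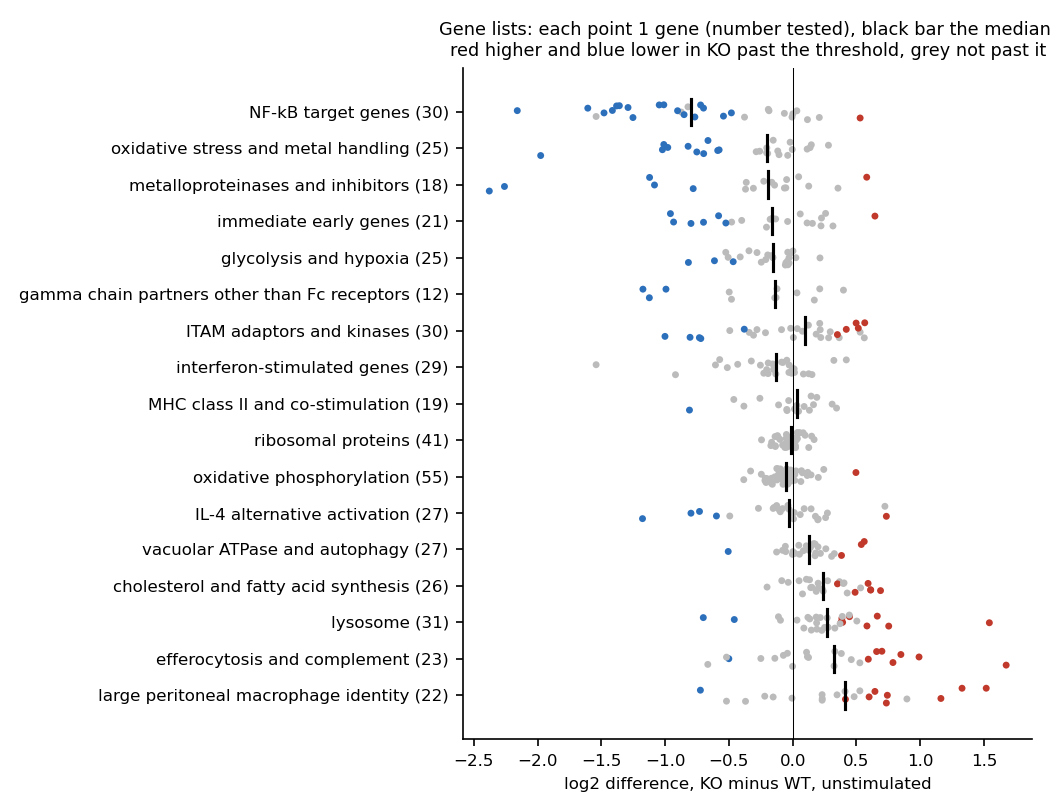
Each point is 1 tested gene of a list (number tested in parentheses), with its log2 difference, KO minus WT, on unstimulated arrays on the x axis. Red genes were higher and blue genes lower past the threshold, grey genes were not past it, and black bars are list medians, which run from -0.79 for NF-kB targets to 0.41 for large peritoneal macrophage identity.

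Several groups showed few or no differences past the threshold, where 5.22% of all genes passed. None of 29 interferon-stimulated genes passed (median -0.13), but 4 were lower without WT replicate 1 and 1 was higher without WT replicate 2. None of 41 ribosomal protein genes (median -0.02) and none of 11 heat shock genes (median -0.09) passed. Of 55 genes of oxidative phosphorylation, 1 was higher (median -0.06). This was Sdhc, a subunit of succinate dehydrogenase and the nearest tested gene to Fcer1g on one side (log2 0.50 ± 0.09, adjusted p = 0.00592), which did not pass without WT replicate 1 (adjusted p = 0.0508) or KO replicate 1 (0.0673). Of 19 genes of MHC class II presentation and co-stimulation, 1 was lower (median 0.03), namely Cd274, the checkpoint ligand PD-L1, at 1245 and 1337 in WT and 807 and 724 in KO (log2 -0.81 ± 0.12, adjusted p = 0.000917). For all the groups that follow in this paragraph the share was above that of all genes, most so for coagulation. Of 27 genes of the alternative activation that IL-4 induces, 1 was higher and 4 lower (median -0.03), and 2 were lower without KO replicate 2. Of 27 genes of the cell cycle and replication, 1 was higher and 3 lower (median 0.05), and 1 was lower without any 1 unstimulated array. Tk1, a thymidine kinase, read 130 and 151 in WT and 104 and 106 in KO (log2 -0.91 ± 0.15, adjusted p = 0.00249), or -0.41 without background correction. Of 25 genes of actin and phagocytosis machinery, 0 were higher and 2 lower (median -0.02), and 1 was lower without WT replicate 1 or KO replicate 2. One of them was Marcksl1, a regulator of actin at the membrane (log2 -1.45 ± 0.20, adjusted p = 0.000714). Of 15 genes of coagulation, 4 were higher and 2 lower (median -0.12), with 2 and 1 without KO replicate 1, 2 and 0 without WT replicate 2 and 3 and 1 without WT replicate 1. F13a1, a transglutaminase of coagulation and of macrophages, differed by 0.95. The 2 lower members, F10 and F7, differed by -0.72 and -0.78.

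Alarmin and acute phase genes gave 3 lower and 0 higher genes of 18 (median -0.07), beside the lower sum of neutrophil markers given above. Hp, the gene of haptoglobin, read 1032 and 960 in WT and 222 and 398 in KO, 4.08-fold lower (log2 -2.03 ± 0.30, adjusted p = 0.00114), with KO replicate 1 the lower of its duplicates and no call under robust variance moderation (adjusted p = 0.147). S100a11 read 3880 and 3773 in WT and 2494 and 2327 in KO (log2 -0.68 ± 0.09, adjusted p = 0.000342). Retnlg, a gene of neutrophils, read 106 and 129 in WT and 89.0 and 90.2 in KO, at least 1.25-fold lower (log2 -1.06 ± 0.17, adjusted p = 0.00211), with no KO array above background and a difference of -0.38 without background correction. The neutrophil genes Mpo, Ngp, Ltf and S100a9 were not above background in any group. Whether fewer neutrophil transcripts have a part in these decreases was not tested.

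Several of the largest differences lay outside the lists. Padi4, which converts arginine residues of histones to citrulline, read 156 and 180 in WT and 455 and 493 in KO, 4.01-fold higher (log2 2.00 ± 0.18, adjusted p = 1.7e-05). Selenop, a secreted selenium carrier, read 241 and 196 in WT and 493 and 508 in KO, 2.87-fold higher (log2 1.52 ± 0.15, adjusted p = 3.3e-05). Emp1, a tetraspan membrane protein, read 1873 and 1311 in WT and 3689 and 3225 in KO (log2 1.17 ± 0.14, adjusted p = 0.00025). Both KO arrays of these genes were well above the higher WT array. Also higher were Slc46a3, a lysosomal membrane transporter (1.49), Enc1 (1.44), Tulp4 (1.10) and Nrp1, a semaphorin co-receptor (1.00). The difference of Slc46a3 was 0.99 without background correction.

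Among the decreases outside the lists, H2-M2, a non-classical MHC class I gene, read 292 and 331 in WT and 139 and 118 in KO, 3.94-fold lower (log2 -1.98 ± 0.21, adjusted p = 8.0e-05), or -1.28 without background correction. Smpdl3b, a membrane phosphodiesterase, read 1062 and 1451 in WT and 338 and 456 in KO (log2 -1.85 ± 0.20, adjusted p = 7.0e-05), and Cdc42ep2, an effector of the GTPase Cdc42, 334 and 315 in WT and 142 and 155 in KO (log2 -1.65 ± 0.15, adjusted p = 1.7e-05). Sema4a, a semaphorin of immune cells, read 1491 and 1817 in WT and 550 and 600 in KO (log2 -1.63 ± 0.15, adjusted p = 1.7e-05). The duplicates of these 4 genes differed far less than the genotypes. AA467197 and Upp1, uridine phosphorylase, had differences of -1.96 and -2.09, and neither passed with robust variance moderation (adjusted p = 0.149 and 0.177). Mefv, the gene of pyrin, an inflammasome sensor, read 122 and 116 in WT and 86.3 and 84.1 in KO, at least 1.27-fold lower (log2 -1.44 ± 0.14, adjusted p = 2.5e-05), with no KO array above background and a difference of -0.48 without background correction. In all, 4 of the higher genes were above background on no WT array and 14 of the lower genes on no KO array.

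The share of genes past the threshold was high near Fcer1g on chromosome 1. Of the 50 tested genes nearest to it, 25 on each side, 12 passed (24.0%), 3 higher and 9 lower, against 5.08% of 9368 genes on other chromosomes. The share was 10.0% of the next 50, 6.00% of the 100 after those, 9.43% of the 106 genes that follow up to 200 genes away and 2.96% of the 203 genes of the chromosome further out, so it did not fall steadily with distance. Of the 12, 10 passed in the same direction with IL-4. Uap1, which makes the sugar donor UDP-GlcNAc and lies 10 tested genes away, read 423 and 422 in WT and 109 and 116 in KO, 7.65-fold lower (log2 -2.94 ± 0.12, adjusted p = 1.2e-08), the largest decrease after Fcer1g. Without background correction its difference was -1.91, behind those of Fpr2, Mmp9, Mmp14, Ptges and Cxcl1. Vsig8, 24 genes away on the other side, read 200 and 232 in WT and 86.7 and 90.5 in KO, at least 2.31-fold lower (log2 -2.70 ± 0.14, adjusted p = 2.0e-07), and its neighbour Dusp23, a phosphatase gene, 351 and 300 in WT and 167 and 158 in KO, 2.67-fold lower (log2 -1.42 ± 0.13, adjusted p = 2.0e-05). All KO arrays of these 3 genes were far below the WT arrays. Without background correction the difference of Vsig8 was -1.28.

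Further out on the same side, Ifi202b, a DNA-binding PYHIN protein whose level is known to differ between mouse strains, had the largest increase after background correction and the fifth without it. It read 88.5 and 93.5 in WT and 224 and 274 in KO, 7.15-fold higher (log2 2.84 ± 0.19, adjusted p = 9.2e-07), or 1.44 without the correction, and 1 of the 2 WT arrays was above background. Aim2, the DNA sensor of the same cluster, read 138 and 135 in WT and 214 and 178 in KO (log2 0.86 ± 0.14, adjusted p = 0.002), or 0.52 without the correction. Of the SLAM receptors, which also lie there, 3 of 7 were lower (median -0.31), and 1 without WT replicate 1 or KO replicate 2. Cd48, a ligand of natural killer and T cell receptors, read 104 and 110 in WT and 86.0 and 87.9 in KO, at least 1.15-fold lower (log2 -0.96 ± 0.13, adjusted p = 0.000518), with no KO array above background. Selp, P-selectin, 29 genes away on the Fcgr3 side, read 105 and 113 in WT and 146 and 211 in KO (log2 1.33 ± 0.21, adjusted p = 0.00154). Without background correction the difference was 0.69 for Selp and -0.30 for Cd48. Leaving Fcer1g and its 100 neighbours on either side out of the count, a choice made after the data had been seen, left 492 of the 516 calls. The fit and the adjustment were not repeated, so this is only a recount. For these neighbours, linkage to the targeted locus and loss of the chain cannot be told apart.

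**Figure D4:**
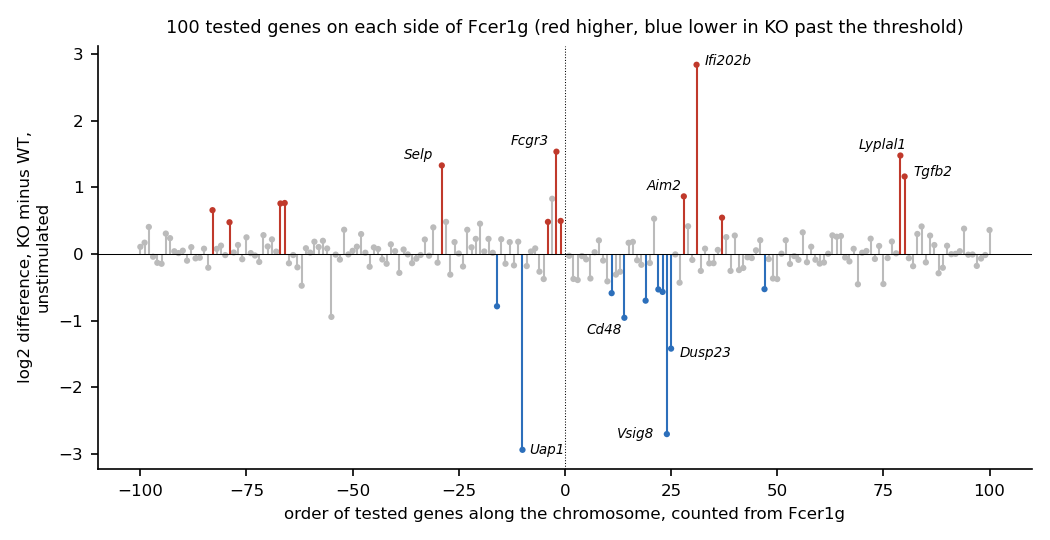
Tested genes are placed around Fcer1g, 100 to either side, by their order along the chromosome (x axis, Fcer1g at the dotted line), and stems give the log2 difference, KO minus WT, on unstimulated arrays. Red (higher) and blue (lower) genes passed the threshold, and they crowd within 31 genes of Fcer1g, with Uap1 and Vsig8 lowest and Ifi202b highest.

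Much of the pattern was also seen on the arrays of IL-4-treated cells of the same genotypes. The labels do not say whether unstimulated and IL-4 arrays of 1 replicate number share a cell preparation. The fit treated all arrays as independent, and the IL-4 arrays may not be an independent repeat. Hba-a1 read 102 and 212 in WT without IL-4 and 92.4 and 229 with it. In KO it read 293 and 120 without and 307 and 114 with it. Cd79b, a B cell gene, read 1362 and 893 in WT without IL-4 and 1729 and 1094 with it. Its KO values were 1229 and 1347 without and 1450 and 1709 with it. Il1b in WT did not keep the order of its duplicates (678 and 444 without, 635 and 1419 with IL-4). In KO, Il1b kept that order (278 and 414 without, 165 and 227 with IL-4). Such pairing was not tested. With IL-4, 503 genes passed (5.09%), 241 higher (2.44%) and 262 lower (2.65%). Of these, 287 had passed in the same direction without IL-4, which is 55.6% of the unstimulated calls and 57.1% of the IL-4 calls, and 0 passed in opposite directions. Of the genes higher in unstimulated KO, 94.6% had a positive difference with IL-4, and of the lower genes 96.9% had a negative one. Of the lower genes, 168 of 258 passed again (65.1%), and of the higher genes 119 of 258 (46.1%), a contrast that was not tested. Across the 9882 genes the differences without and with IL-4 correlated at Pearson's r = 0.692 and Spearman's rho = 0.406, a description over genes, which are not independent replicates. Pearson's r was 0.644 without Fcer1g and its neighbours.

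The largest inflammatory decreases were present with IL-4 as well. The difference of Cxcl1 was -2.16 unstimulated and -3.25 with IL-4, that of Ptges -2.27 and -3.43, that of Mmp14 -2.26 and -3.20 and that of Tnf -1.48 and -2.25. The increase in size with IL-4 did not pass the interaction test for these 4 genes. Of the large peritoneal macrophage identity genes, 8 were higher unstimulated and 10 with IL-4. Of the efferocytosis and complement genes 7 were higher in each state, but these were not all the same genes. Gata6, Adgre1, C1qc, C4b and Mfge8 passed as higher in both states. Vsig4 differed by 1.52 and 1.19, Gas6 by 1.67 and 1.18 and the lysosomal gene Lgmn by 1.54 and 1.03, and all 3 passed in both states. C1qa (0.59 and 0.22, adjusted p with IL-4 = 0.293) and C1qb (0.70 and 0.30, 0.0768) did not pass with IL-4, nor did Tgfb2 (1.16 and 0.27, 0.509), and the change with IL-4 did not pass the interaction test for these 3 genes. Whether a genotype difference itself changed with IL-4 was tested by the interaction, which 12 genes passed (0.121%, with 651 at an unadjusted p under 0.05). Of the genes described above, Tlr2 (-0.81 unstimulated, -1.85 with IL-4, interaction adjusted p = 0.00232) and Gpr84 (-1.39 and -2.32, 0.0265) were lower by more with IL-4. Slc7a2 was lower in resting KO cells and near equal with IL-4 (-1.18 and 0.06, interaction adjusted p = 0.00449), and Apoc4 was higher in resting cells (1.36 and 0.08, 0.0347). Apoc4 was above background on no IL-4 array of either genotype, so its difference with IL-4 could not be measured.

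**Figure D5:**
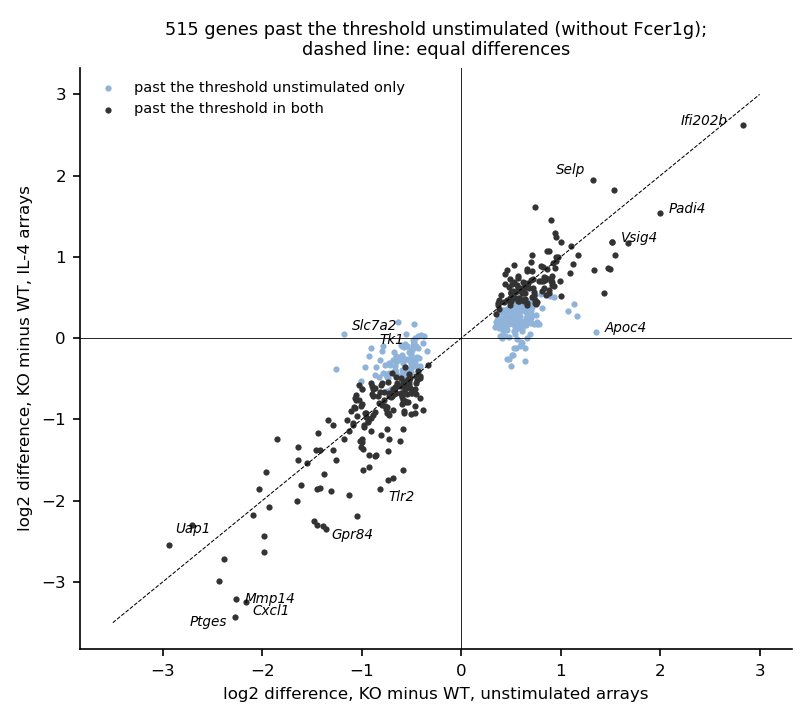
Each point is 1 of the 515 genes past the threshold on unstimulated arrays (without Fcer1g), with its log2 difference, KO minus WT, without IL-4 on the x axis and with IL-4 on the y axis. Dark points passed in both states and light points without IL-4 only, the dashed line marks equal differences, and Cxcl1, Ptges and Mmp14 lie below the line while Slc7a2 and Apoc4 lie near 0 on the y axis.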

How the data were processed

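Biotin-labelled RNA of adherent peritoneal macrophages was read on Illumina Mouse Ref-8 bead arrays, 1 per sample. The deposited values are normalized intensities, not logarithms. The submitters' processing notes name GenomeStudio, and its settings are not given in the sources used here. Sorted values of the arrays differ by at most 0.570 intensity units and start near 78.4, so they were read as quantile-normalized without background subtraction. A table of non-normalized signals was not used, since its headings match no sample label (16 columns, of which 8 hold signals and the others detection p-values).

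The normexp background correction (saddle, offset 16) was applied before log2. The background threshold of an array was the mode of its low values plus 1.645 standard deviations of the values under that mode. The platform annotation gives 1 gene symbol to 23978 of the 25697 probes, several to 0 and none here to 1719. Probes over the threshold on both arrays in any of the 4 groups were kept, with the brightest probe per gene, which left 9882 genes (2620 with several probes). Group means of all 8 arrays were fitted by limma 3.58.1 (R 4.3.3) with a variance trend (4 residual and 9.34 prior degrees of freedom) and Benjamini-Hochberg adjusted p-values over all genes. An exact permutation of 2 arrays against 2 could not go below p = 0.333, so it was not used. The fit was checked on simulated data.

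Members, lists, tests and named genes were chosen with earlier results of these data known. The rule for named genes takes the Fc receptors and partners, the 25 largest differences in each direction, genes dim in 1 genotype, up to 6 called and 3 uncalled genes per list, called neighbours of Fcer1g and interaction genes, and the text prints part of them. Axl, Blvrb, C1qa, Ccl2, Ncf4, Nfkbia, Nfkbiz, Relb, Tlr7, Tnfaip2 and Tnfaip3 were added after their values were seen. Promoters, motifs and gene order came from RefSeq (GRCm38.p6). Alternatives covered the background correction, filter, probe choice, variance model, replicate block and leaving out each array.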

Additional observations from a re-analysis of the deposited data

Results flagged for a closer look

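In 12 genes the genotype difference itself differed between IL-4-treated and unstimulated cells by the interaction test (limma, adjusted p under 0.05), and these results stand here as values. The interaction is the log2 difference, KO minus WT, with IL-4 minus that without. It was -1.89 ± 0.19 (SE) for the chemokine gene Ccl4 (0.21 unstimulated, -1.68 with IL-4) and -1.26 for Ccl3 (-0.07 and -1.33), which did not differ past the threshold in resting cells. It was -1.04 for Tlr2, -1.04 for Cd244a, -1.02 for Cfap410 and -0.93 for Gpr84, genes lower in KO in both states. It was -1.28 for Apoc4 and -0.84 for Blnk, both higher in resting KO cells, with differences of 0.08 and -0.34 under IL-4. Apoc4 was above background on no IL-4 array, so its value there lies at the floor. The positive values were 1.23 for Slc7a2, 1.15 for Tuba8, 1.74 for Klf4 and 1.75 for Retnla. Klf4 and Retnla, both genes of the IL-4 response, differed by 0.26 and -0.49 in resting cells and by 2.00 and 1.25 with IL-4. In resting cells Klf4 was above background on 0 WT arrays and 1 KO array, so its resting difference also lies near the floor.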

How the results depend on the processing

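The unstimulated count of 516 genes ranged from 293 to 523 with 1 array left out. It was 567 with the replicate number as a block (under which Fcgr1 and Fcgr4 also passed, adjusted p = 0.0119 and 0.00105), 435 without the variance trend and 471 with probes averaged per gene. Pairing of the genotypes by replicate number was looked at only over all genes together, which cannot exclude a shared replicate effect in some of them. The deviations of the first replicates of KO and WT correlated at 0.0053 unstimulated and -0.030 with IL-4. Pairing of unstimulated with IL-4 arrays of the same genotype and replicate number was not tested. The IL-4 count of 503 was 550 with the block and ranged from 257 to 479 with 1 array left out. The interaction count of 12 was 19 without background correction, 19 without the filter on dim probes, 4 with genes above background on all 8 arrays and 16 with the block, and ranged from 3 to 10 with 1 array left out. Under all those of the 19 alternatives to the unstimulated fit in which they were tested, 178 of the 516 genes passed (77 higher, 101 lower), and 1 of the 516 changed sign under any of them. This was Ube2u, near background, at log2 -0.63 and 0.11 without the filter. Of 165 called genes with several probes, the probes of 156 had the same sign. Precision is limited by the 2 arrays of each group, and near the background threshold the size of a difference rests on the background correction.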
